A study of Homo sapiens with 8 samples.

Results

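Microarrays with 2 colours, comparing miR-139-3p-transfected with mock-treated cells, were examined in A498 and 786-O, established cell lines from human renal cancer. The arrays were chosen by their transfection label, and 2 of the 8 arrays of the series carried it, 1 for each line. On each array the transfected RNA was labelled with Cy5 and RNA of the same line, called mock or no transfection in the labels, with Cy3, and no array had its dyes swapped. Transfection used the lipid reagent Lipofectamine RNAiMAX. For the renal arrays, dose and time after transfection are not given in the sources used here. The green channel held no control oligonucleotide, so miR-139-3p and the delivery of a small RNA as such cannot be told apart. The other arrays paired mock with miR-139-5p in the same renal lines (2 arrays), with 2 siRNAs against GINS1 in the breast cancer line MDA-MB-231, and with miR-490-5p or miR-490-3p in the colorectal cancer line HCT116. The last 4 served here as a reference for probe and dye bias, because a probe that labels better with one dye should lean the same way on them.

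A microRNA is a short RNA that guides Argonaute proteins to messenger RNAs, mostly by pairing of its seed near the 5′ end, and lowers their stability or translation. miR-139 lies within PDE2A, and its hairpin yields mature strands from both arms, which carry different seeds and so pair with different messages. Both are shown with bases 2 to 8, the seed, in capitals (RefSeq, GRCh38.p14, minus strand of chr11:72615066-72615088 for the 3p strand and chr11:72615102-72615124 for the 5p strand).
hsa-miR-139-3p: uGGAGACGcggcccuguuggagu
hsa-miR-139-5p: uCUACAGUgcacgugucuccagu

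Each array held 58201 probes after control spots were left out. Between 24980 and 29685 of them stood well above background in at least 1 channel, with 25637 on the A498 array and 25134 on the 786-O array of miR-139-3p. A gene was represented by its brightest named probe, and 17703 genes were measured in A498, 17287 in 786-O and 15960 in both. All values are log2 ratios of transfected over mock after normalization, on which 1 unit is a 2-fold difference. Dim genes are understated because a constant was added to both channels. As a yardstick, the mock channels of one line, measured on its array for either strand of miR-139, differed with an SD of 0.105 in A498 and 0.0868 in 786-O, and whether they came from one extract is not given in the labels. Renal tubule markers were measured in both lines (9 of 10 in A498, 10 of 10 in 786-O), with the kidney transcription factor PAX8 at a log2 signal of 8.13 in the mock channel of each. Only 1 of 6 gut markers (CDX1) and 3 of 6 breast markers stood above background. Of 6 leukocyte markers, 4 were on the array and 3 were measured in each line. PTPRC was near the floor at 6.18 and 6.24, and signals of the others are not given here. HIF1A was not above background in 786-O, a line known to lack it, and had a mock signal of 9.27 in A498.

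The first question was which transcripts changed in both lines. No probe passed limma's test against mock, in which all 8 arrays shared one estimate of the spread (0 of 22806 probes at a Benjamini-Hochberg adjusted p under 0.05, 0%). At an unadjusted p under 0.05 there were 1012 probes, and the lowest adjusted p was 0.0552. With the 4 reference arrays subtracted, limma again called none (0 of 22806, 0%). Unadjusted, 2609 had a p under 0.05, and the lowest adjusted p was 0.218. The group held 1 array of each line, so its spread includes the difference between the lines, and 3 residual degrees of freedom were available. These came from the miR-139-3p pair, the miR-139-5p pair of the same lines, and the 2 siRNAs against GINS1, taken as replicates. The siRNAs could differ, as for the snoRNA SNORA67 (-2.05 and 1.62), and such differences enter the SEs and p-values given here.

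The ratios spread over a wider range in A498 than in 786-O, as the plot of both lines shows. The SD of the log2 ratio over genes was 0.19 in A498 and 0.107 in 786-O. The SD between mock channels, 0.105 and 0.0868, is only a rough guide beside these. It was taken over probes, within Cy3, between arrays and after another normalization. In A498, 301 of 17703 genes lay at or below -0.5 (1.70%) and 113 at or above 0.5 (0.638%). In 786-O, 22 of 17287 genes lay at or below -0.5 (0.127%) and 19 at or above 0.5 (0.110%). At a size of 1, A498 had 33 lower genes (0.186%) and 6 higher ones, against 5 and 0 in 786-O. Of the 280 genes at or below -0.5 in A498 that were measured in both lines, 251 lay within 0.25 of 0 in 786-O (89.6%, beside 97.5% of all genes measured in both) and 216 were below 0 (77.1%, beside 46.9%). Each line has 1 array, so the difference between lines could not be tested, and in bulk RNA fewer cells of a kind and less RNA per cell cannot be told apart.

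**Figure D1:**
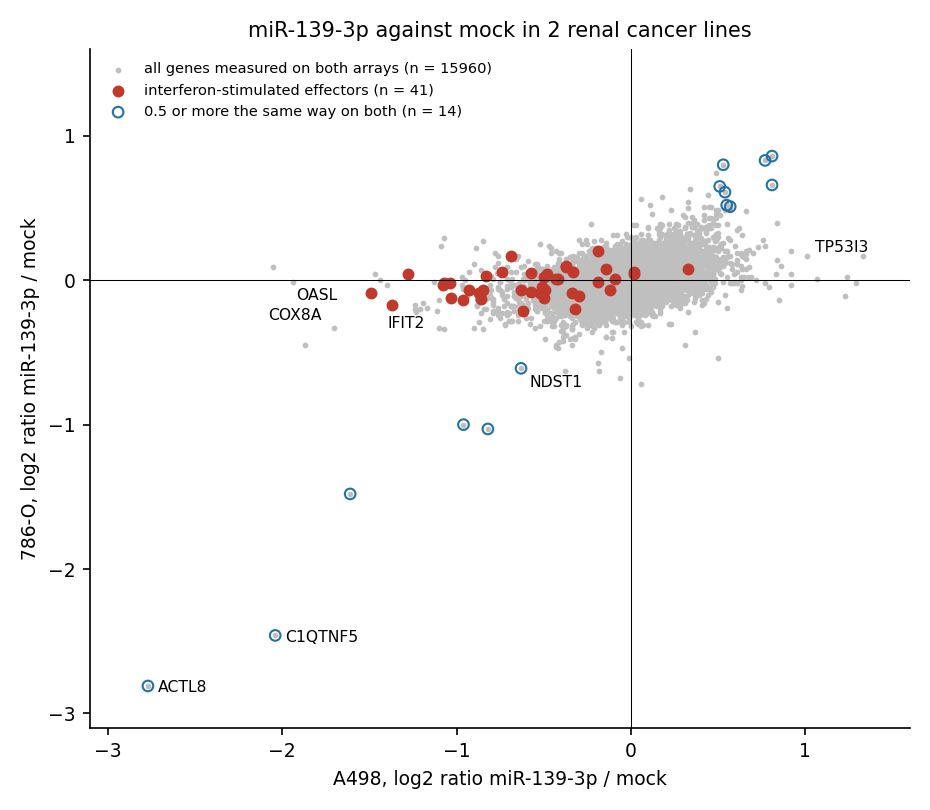
Log2 ratio of miR-139-3p over mock in A498 (x axis) and 786-O (y axis), 1 array each, 1 point a gene. The 41 interferon-stimulated effectors measured in both lines spread from -1.49 to 0.33 along A498 and stay between -0.21 and 0.2 along 786-O, and 14 genes (open circles) lie 0.5 or more from 0 the same way in both.

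Only 14 genes were 0.5 or more from 0 the same way in both lines, 6 lower and 8 higher, and 12 of these leaned that way on all 4 reference arrays too. The probe with the lowest ratio, for the actin-like gene ACTL8, read -2.77 in A498 and -2.81 in 786-O, and between -2.82 and -2.21 on the other 6 arrays. Its red channel was not well above background in either line, so the probe was at least 6.81-fold and at least 6.99-fold lower, measured against the lowest signal well above background or its own where that was higher. A separate ACTL8 probe read 0.07 and -0.05. The probes for the collagen-like C1QTNF5 (-2.04 and -2.46), for SMAD1-AS1 (-0.96 and -1) and for the receptor PDGFRB (-0.82 and -1.03) were likewise low on every array, from -2.58 to -2.16, from -1.06 to -0.92 and from -1.08 to -0.88 on the other 6. The red channel of SMAD1-AS1 was also not well above background, which gives at least 1.94-fold and at least 2-fold. ACTL8, C1QTNF5 and SMAD1-AS1 were the 3 probes nearest to limma's threshold (adjusted p 0.0552, 0.0608 and 0.063). The lowest p-values against mock thus belonged to probes that gave a like ratio whatever was transfected. The noncoding lnc-SLC2A4RG-1 read -1.61 and -1.48 and was below 0 on the other 6 arrays, at -0.04 on one and -1.41 or lower on 5. Among the higher genes, probes for EXOSC2, TSR1, LOC284600, CC2D1A, SLC66A1 and ZNF865 lay among the brightest on the array (log2 signals of 15.45 to 16.79) and were all above 0 on all 8 arrays. Other probes of CC2D1A read 0.01 and 0.03 in A498, those of ZNF865 0.03 and 0.08, and those of EXOSC2 -0.05 and -0.1. A second probe read 0.06 for LOC284600 and 0.18 for TSR1 in A498. KCNQ1OT1, a noncoding RNA of the imprinted KCNQ1 locus, read 0.54 and 0.61 and was above 0 on the other 6 arrays, from 0.07 to 0.98.

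**Figure D2:**
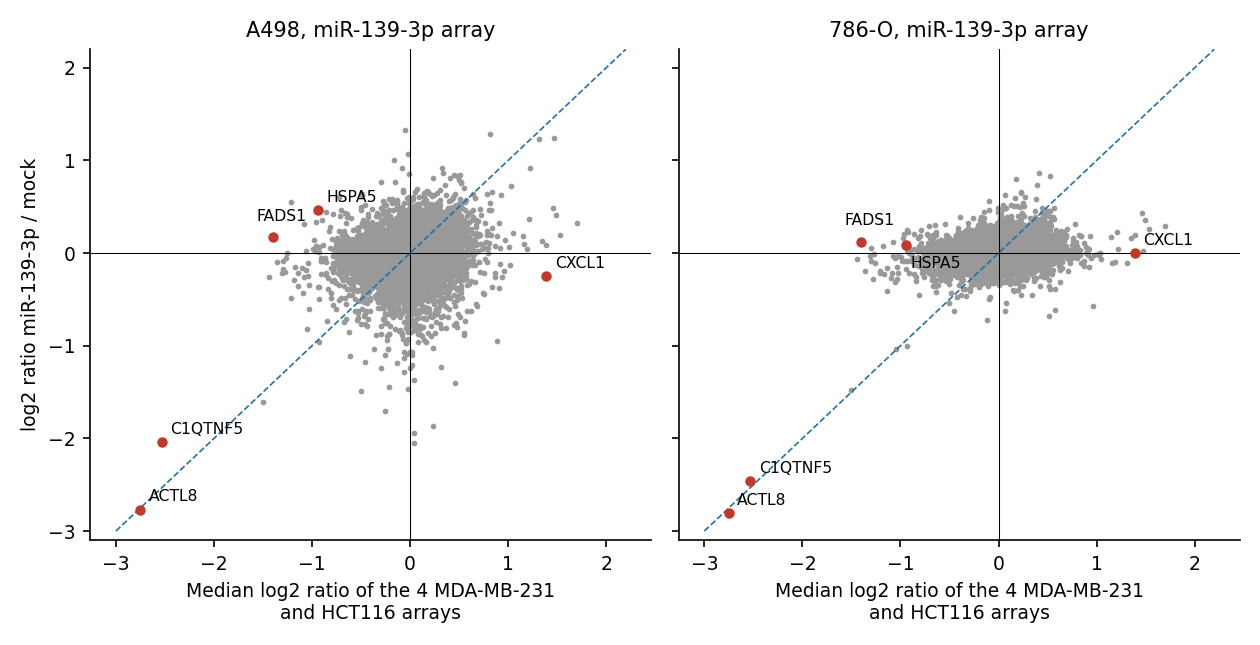
Log2 ratio on each miR-139-3p array (y axis) against the median of the 4 MDA-MB-231 and HCT116 arrays (x axis) for the 15960 genes measured in both renal lines, with equal values on the dashed line. ACTL8 and C1QTNF5 lie near that line in both panels, whereas CXCL1 (reference median 1.39) and FADS1 (-1.4) lie near 0 on both miR-139-3p arrays.

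NDST1, which starts the modification of heparan sulfate chains, was the one gene past 0.5 in both lines before and after the reference median was taken off. Its log2 ratio was -0.63 in A498 and -0.61 in 786-O. On the other renal arrays it was -0.15 and -0.03, and on the reference arrays it ran from -0.05 to 1.25, so its lower values were on both miR-139-3p arrays. limma's mean was -0.62 with an SE of 0.07 (adjusted p 0.85), and its difference from the reference arrays was -1.22 with an SE of 0.09 (adjusted p 0.218). COX2, the mitochondrial subunit of cytochrome c oxidase, read 0.53 and 0.8, with -0.03 to 0.41 on the reference arrays. VAV3, a guanine nucleotide exchange factor chosen here after its values were seen, read 0.54 in A498 and 0.49 in 786-O, with 0.26 and 0.19 on the miR-139-5p arrays and -0.02 to 0.07 on the reference arrays, where its signal was at background (limma mean 0.51, SE 0.05, adjusted p 0.635).

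Taking the reference median off each ratio gave longer lists, which rested mainly on the reference arrays. By that measure 620 of 17703 genes lay at or below -0.5 in A498 (3.50%) and 266 of 17287 in 786-O (1.54%), and 165 genes were lower and 223 higher by 0.5 or more in both lines. In 145 of the 165 and 218 of the 223, both of the genes' own ratios lay within 0.5 of 0, and the reference median was at or above 0.5 for 114 of the lower genes and at or below -0.5 for 192 of the higher ones. Across the 15960 genes the dye-referenced ratio of 786-O correlated with the reference median at r = -0.882, a description over genes that share arrays. The lowest shared gene, the chemokine CXCL1, had own ratios of -0.25 and 0 while both siRNA arrays read 2.1 and 2.49. The noncoding SNAR-D, SNAR-F, SNAR-G2 and SNAR-H, near-identical copies whose probes cannot be separated, had own ratios of 0.09 to 0.32. CCN1, a matrix protein, read 0.04 and -0.1, and DNAJC7, a heat shock protein partner, -0.19 and -0.57.

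On the higher side the desaturase FADS1 read 0.17 and 0.12 against a reference median of -1.4. S100A2, ABCC3 and RAB26 had own ratios between -0.26 and 0.06 in both lines, as did the chaperone HSP90B1 (-0.1 and -0.19). The sulfate transporter SLC26A2 (0.45 and 0.23), HSPA5, the main chaperone of the endoplasmic reticulum (0.46 and 0.09), CRELD2 (0.34 and 0.21) and SEC11C (0.31 and 0.12) were above 0 in both, and the protease PLAU was not (0.55 and -0.19). On the lower side, EHD1, an endocytic recycling ATPase, read -0.95 in A498 and 0 in 786-O. These values are therefore read below only beside a gene's own ratio.

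In A498 alone, 22 genes were lower and 3 higher by 1 or more in both the own and the dye-referenced ratio, whereas 786-O had 1 lower and 0 higher. The lowest genes in A498 were of mixed function. They included the atypical small GTPase RND3 (-1.23, and -0.22 in 786-O), the monoacylglycerol lipase MGLL (-1.02 and -0.13), aminopeptidase N (ANPEP, -1.24 and -0.17) and the zinc transporter SLC39A11 (-1.21 and -0.2). COX8A, a small subunit of cytochrome c oxidase, read -1.7 and -0.33, and its second probe -1.53 and -0.19. For PIGS, which helps attach GPI anchors, the probes did not match, with -1.4 for one and -0.31 for the other in A498. IFIT2 (-1.37) belongs to the interferon genes described below, as do IFIT1, IFI27, IFI44L and RSAD2 among the 10 further genes. The other 6 of those 10 were the integrin ITGB3 (-1.1), the anticoagulant receptor THBD (-1.13), syntenin (SDCBP, -1.07, and -0.34 in 786-O), VKORC1 (-1.19), the thioredoxin inhibitor TXNIP (-1.09) and the apolipoprotein APOL6 (-1.07). Both other APOL6 probes were nearer to 0, at -0.34 and -0.08. Some of these genes were also lower with miR-139-5p in A498, where APOL6 read -1.08 with its brightest probe, ITGB3 -0.61 and SLC39A11 -0.59. Apart from the interferon genes, the others named here lay between -0.22 (MGLL) and 0.21 (VKORC1) on that array.

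On the higher side in A498 stood SCARNA22, a small Cajal body RNA (1.33, and 0.17 in 786-O), and the lipid transporter ABCA12 (1.07 and 0.01). With them was TP53I3, a p53-induced oxidoreductase (1.01 and 0.17, with 0.92 and 0.16 for its second probe). Own ratios of the snoRNAs SNORA67 (1.24 and 0.02) and SNORA2B (1.23 and -0.11) were also high in A498 and near 0 in 786-O. They entered the 786-O-specific list as its only 2 lower genes because 3 of the 4 reference arrays read 1.09 or more, which leaves that list without a gene whose own ratio moved in 786-O. The single gene by size in 786-O was the noncoding LINC02426, with -1.18 there (log2 signals of 7.56 in mock and 6.38 in transfected cells), 0.01 with miR-139-5p in the same line, and no channel above background in A498. By the line-specific rule, 20 genes were lower and 2 higher (SCARNA22 and ABCA12) in A498 with a dye-referenced ratio within 0.25 of 0 in 786-O. When the own ratios were held to the same sizes, a choice made after the data were seen, 13 lower and both higher genes met it. Mock signals of these 13 in 786-O ran from 5.88 (the noncoding CNTFR-AS1) to 11.13 (VKORC1). Some, such as CNTFR-AS1 and THBD (6.18), lay near the floor there, where a fall was hardly detectable.

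Noncoding probes were among the lowest in A498, and the question arose whether probes with a match to the miR-139-3p seed were low in general. The matches searched on the probes' sense strand were CGTCTCC, complementary to bases 2 to 8, and GTCTCCA, complementary to bases 2 to 7 and followed by A, and they overlap where both are present. The 3 lowest in A498 among the probes that held a match are shown as 30 of their 60 bases with the match in capitals (probe positions in hg19, plus strand).
Noncoding chrX probe, chrX:139866750-139866809: atgtcttccaaCGTCTCCagtgtgctgatc
lnc-NAA35-1, chr9:88487704-88487763: catgtcttccaGTCTCCAaaatacagttcc
COX8A, chr11:63743901-63743960: gacctcttgatGTCTCCAtggtgacctcct

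The noncoding chrX probe read -2.05 in A498 and 0.09 in 786-O, and lnc-NAA35-1 read -1.94 and -0.01. Their mock signals differed between the lines in the same way, 10.88 and 10.67 in A498 against 6.33 and 6.3 in 786-O. The 786-O signals lay near the floor of the array, where a fall was hardly detectable. The probes of CNTFR-AS1 (-1.47 in A498) and of CPTP (-0.76 and -0.61) share a run of 14 letters with it, and lnc-NAA35-1 shares 13, so a signal common to them cannot be assigned to one transcript. A SPEF2 probe that also shares 13 letters read -0.1. A further noncoding gene, LINC01563 (-1.44 in A498, 0 in 786-O), shared no more than 9. CDR1, whose probe lies on the opposite strand at chrX:139865558-139865617, read -0.15.

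In A498 the medians of probes with a match stayed near that of the array, while a larger share of them lay at or below -0.5 than of all probes. The 60 probes with CGTCTCC had a median of -0.005 in A498, where all 25637 probes had 0.003, and 51.7% were below 0 against 49% of all. Of these 60, 4 lay at or below -0.5 (6.67%), beside 1.4% of all probes. The 145 probes with GTCTCCA had a median of -0.018, with 60% below 0 and 8 at or below -0.5 (5.52%). A probe with both words counts in each class, and the 4 low probes with CGTCTCC are all among these 8. The noncoding chrX probe and lnc-NAA35-1, which share a run of letters, are among the 8 too. On the same array, 2.15% of 93 probes with ACTGTAG and 2.97% of 101 with CTGTAGA, the matching words for the miR-139-5p seed, lay at or below -0.5. The difference from all probes was not tested. In 786-O the medians were -0.001 over 59 probes and 0.01 over 140, with 0 probes at or below -0.5 in either class, beside 0.119% of all. On the miR-139-5p array of A498, which did not receive this strand, the same 2 classes had medians of 0.012 and 0.019, 37.9% and 42.1% below 0 (46.8% of all) and 0 probes at or below -0.5, beside 0.493% of all. A probe covers a small part of its transcript, so a gene without a match here may hold one elsewhere.

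Many interferon-stimulated genes had lower values in A498. Type I and III interferons bind receptors that activate a complex that holds STAT2 and IRF9, and it binds interferon-stimulated response elements in promoters of genes that restrict viruses. RIGI and IFIH1 sense foreign RNA in the cytoplasm upstream of interferon, and epithelial tumor lines can keep part of this programme active without infection. Of 50 effectors on the list, 49 were measured in A498, and 46 of those were below 0, beside 8574 of all 17703 genes. Of the 49, 26 lay at or below -0.5, beside 1.70% of all genes, and 0 at or above 0.5. The median was -0.51 (-0.44 with the reference median taken off), beside 0 for all genes. In 786-O, 41 effectors were measured with a median of -0.02, 23 below 0 and 0 at or below -0.5. Of the 41 measured in both lines, 40 were lower in A498, beside 8110 of all 15960 genes.

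OASL, an antiviral protein related to the oligoadenylate synthetases, was the lowest effector, with a log2 ratio of -1.49 in A498 and -0.09 in 786-O. IFIT2 (-1.37 and -0.17), IFIT1 (-1.28 and 0.04) and IFIT3 (-1.04 and -0.02), a family of antiviral RNA-binding proteins, followed the same pattern. So did RSAD2, which makes a chain-terminating nucleotide (-1.06 in A498, not above background in 786-O), and IFI44L, IFI27 and IFI44 (-1.08, -1.07 and -1.03 against -0.03, -0.02 and -0.12). The GTPase MX1 read -0.85, ISG15, a ubiquitin-like modifier listed among the negative regulators, -0.88, and PARP14 -0.83 in A498. OAS3 read -0.74 with one probe and -0.12 with another. Near 0 were HELZ2 and GBP2, both at 0.02, though another HELZ2 probe read -0.25.

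**Figure D3:**
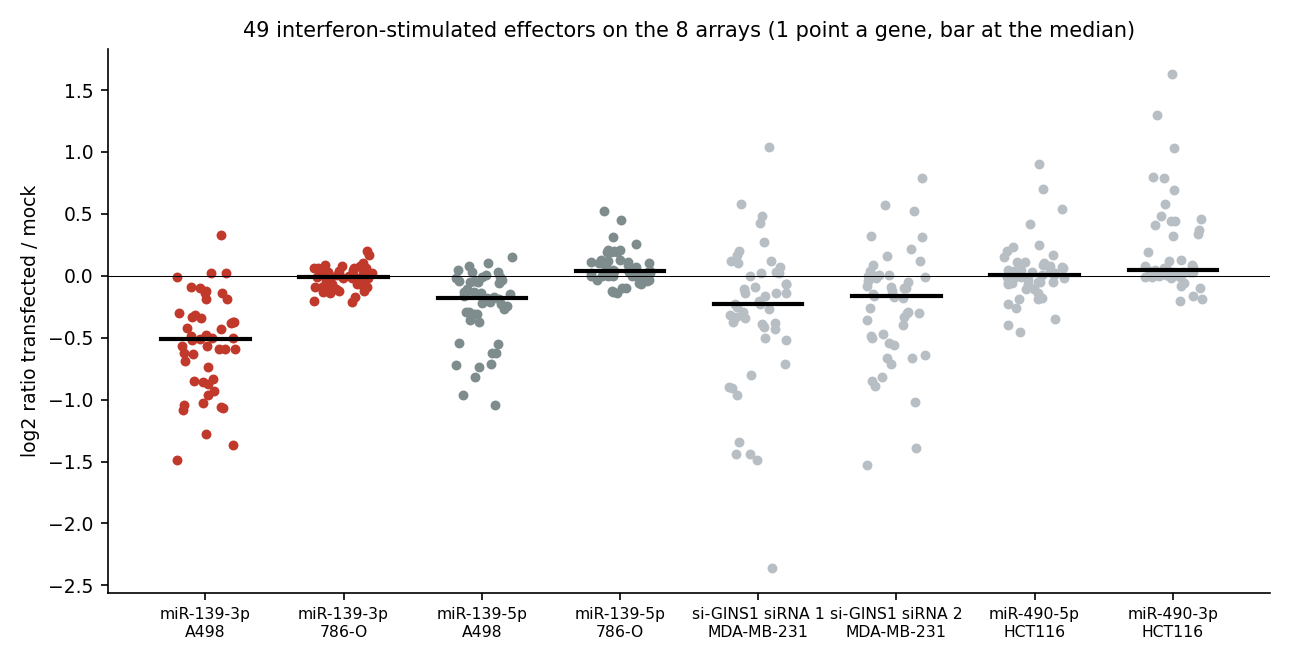
Log2 ratio of transfected over mock for the 49 interferon-stimulated effectors measured in A498, on each of the 8 arrays (points are genes, bars medians, and genes near background on another array are kept there). The median is -0.51 for miR-139-3p in A498, -0.18 for miR-139-5p in A498, and -0.23 and -0.16 on the siRNA arrays in MDA-MB-231.

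Lower interferon genes were not particular to this array. With miR-139-5p in A498, 10 of 49 effectors lay at or below -0.5 (0.570% of all genes there) and the median was -0.18, with IFIT2 at -1.04 and OASL at -0.96. That array was hybridised against mock RNA of the same line. Whether it was the same extract is not given, so both arrays may share their control. The siRNA arrays had medians of -0.23 and -0.16 over the same 49 genes and reached -2.36 for OASL, while the HCT116 arrays had 0.01 and 0.05.

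The upstream members differed by layer. Of the RNA sensors and adaptors, 5 of 9 measured were at or below -0.5 in A498, namely IFIH1 (-0.94), RIGI (-0.86), EIF2AK2 (-0.67), TRIM25 (-0.66) and DHX58 (-0.58), all themselves interferon-inducible. Another EIF2AK2 probe read -0.23. MAVS, TICAM1 and TBK1, which pass the signal on, read -0.18, -0.16 and 0.03. Of the transcription factors, STAT2 (-0.79) and IRF7 (-0.54) were past -0.5, IRF9 read -0.19, and IRF3, made constitutively, -0.09. The 8 receptor and kinase genes lay between -0.32 and 0.23. Among ligands, IFNB1 read 0 and IFNL1 -0.11 at signals of 5.92 and 5.98, near the floor of the array, where a difference was not detectable. In 786-O none of these members reached 0.5 in either direction.

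The 2 lines also differed before transfection. In the mock channel, 37 of the 41 effectors measured in both were brighter in A498, beside 47.7% of all genes. The median of A498 minus 786-O was 0.88 on the log2 scale, beside -0.01 for all genes. OASL had mock signals of 11.51 in A498 and 6.8 in 786-O, MX1 10.04 and 6.4, and RSAD2 8.87 and 5.81. IFIT1 was bright in both, at 10.87 and 9.17, and read 0.04 in 786-O. LY6E was brighter in 786-O (10.51 against 9.42) and read -0.21 there and -0.62 in A498. The part of starting level in the difference between the lines was not tested.

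**Figure D4:**
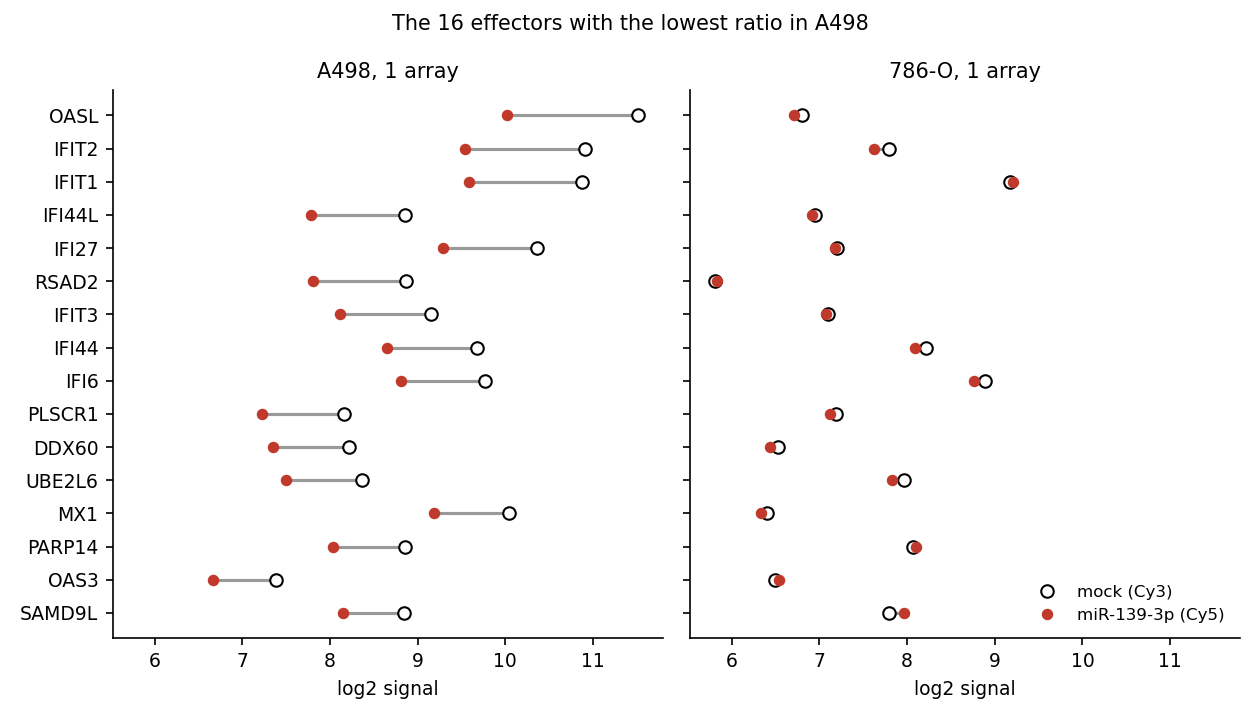
Normalized log2 signal of the 16 effectors with the lowest ratio in A498, in mock (open) and miR-139-3p-transfected cells (filled), in both lines, 1 array each. In A498 the transfected signal is lower for all 16, in 786-O the pairs lie within 0.17 of each other, and the mock signal is brighter in A498 for all 16, by 0.4 to 4.71.

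Promoters of these genes are shown as a description. The list was drawn up of interferon-stimulated genes, so a high share with the response element was built into it. The core of the interferon-stimulated response element was searched as GAAANNGAAA on both strands (TTTCNNTTTC on the other), in the 300 bases around the start of each gene (RefSeq, GRCh38.p14). It was present in 3.57% of 35116 promoters, and in 4.04% of the 11624 of genes measured in A498. Of the 38 effectors with a promoter in the table, 28 held it (73.7%). Among them were 16 of 23 with a ratio at or below -0.5 in A498 (69.6%) and 12 of 15 measured above that (80.0%). Windows of 30 bases around 1 match each, with the match in capitals, were as follows.
IFIT1, chr10:89392497-89392526, minus strand: accgaaagggGAAAGTGAAActaaagctag
IFIT3, chr10:89332468-89332497, minus strand: aaggggaaagGAAAGTGAAActgatggaac
IFI44, chr1:78649761-78649790, minus strand: tcagagaaagGAAACTGAAActcagtgtgc
RSAD2, chr2:6877622-6877651, minus strand: ttccacatgtGAAACTGAAAgttgaaacag
MX1, chr21:41420559-41420588, plus strand: gagcagaaatGAAACCGAAActgaattgtc
A match is a run of letters and was not measured as a bound site.

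Genes of class I antigen presentation, which interferons also induce, were lower to a smaller extent. Of 17 measured in A498, 15 were below 0 and 3 at or below -0.5, with a median of -0.24, and in 786-O the median was -0.04. B2M, the invariant light chain, read -0.84 in A498 and -0.2 in 786-O, HLA-B -0.7 and -0.28, and HLA-C -0.62 and -0.17. HLA-E read 0.45 and 0.43 with its brightest probe and -0.42 and 0.05 with another, and the brightest probe was above 0 on all 8 arrays.

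Inflammatory, hypoxia and matrix genes also had members with lower values in A498. Of 24 NF-kB targets and cytokines, 5 were at or below -0.5, namely CCL5 (-0.91), CSF2 (-0.79), IL6 (-0.78), SAA1 (-0.6) and TNFAIP2 (-0.54), while ICAM1 read 0.31 and NFKBIA, the inhibitor of the pathway, 0.03. Of 23 HIF targets, 6 were, among them the glucose transporter SLC2A1 (-0.94), hexokinase HK2 (-0.79), EGLN3 (-0.78) and VEGFA (-0.75), and ANKRD37 read 0.68. VEGFA and NDRG1 were below 0 in 786-O as well, at -0.26 and -0.33. A second VEGFA probe read -0.33 in A498 and 0.05 in 786-O. Of 30 mesenchymal and matrix genes, 25 were below 0 and 6 at or below -0.5, among them ITGB3 (-1.1), the basement membrane collagens COL4A2 (-0.67) and COL4A1 (-0.54), the protease inhibitor TIMP2 (-0.67) and fibronectin (FN1, -0.52). COL5A1 read -0.85 with one probe and -0.25 with another. The medians were -0.18, -0.18 and -0.29 in A498 and -0.06, -0.08 and -0.09 in 786-O. With the reference median taken off, that of the NF-kB list was -0.49 in A498 (11 of 24 at or below -0.5, beside 3.50% of all genes). In 786-O it was -0.22 (5 of 21, beside 1.54% of all genes), where 0 were at or below -0.5 by own ratio. That of the HIF list lay above 0 in both lines, at 0.06 and 0.12. The reference arrays had medians of 0.25 over the NF-kB list and -0.15 over the HIF list, which enter these values. Median centring in place of loess raised the median of all genes to 0.043 in A498 and 0.075 in 786-O. Beside these, the HIF list had 0 in A498, and the NF-kB, HIF and matrix lists had 0.06, 0.06 and 0.12 in 786-O.

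**Figure D5:**
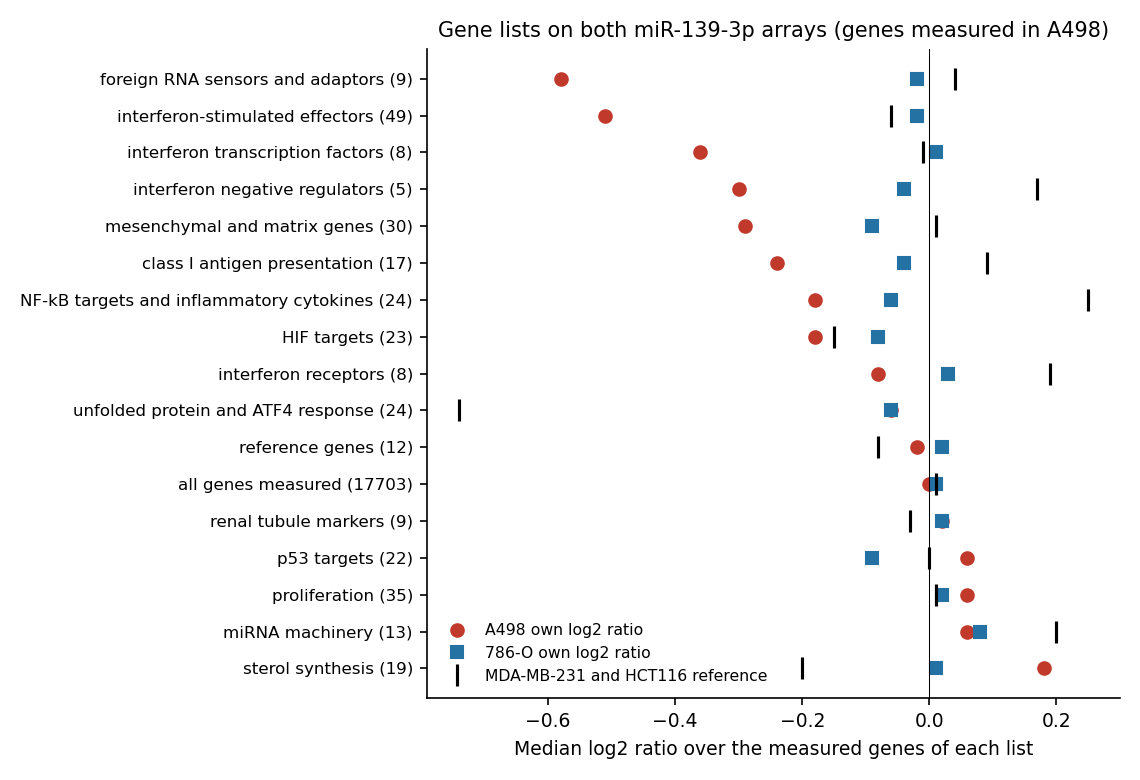
Median log2 ratio of each gene list on the miR-139-3p arrays of A498 (circles) and 786-O (squares) and on the reference arrays (ticks, over genes measured in both renal lines), with the number measured in A498 in brackets. The lists of foreign RNA sensors and of interferon-stimulated effectors have the lowest medians in A498, at -0.58 and -0.51, and every square lies between -0.09 and 0.08.

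Sterol synthesis genes had higher values in A498, with a median of 0.18 and 4 of 19 below 0. DHCR7, a late enzyme of the pathway, read 0.44, while the epoxidase SQLE read -0.3. In 786-O the median was 0.01. With the reference median taken off the medians were 0.42 and 0.21. At or above 0.5 were then 5 and 3 of 19, beside 468 of 17703 and 356 of 17287 of all genes. By own ratio 1 and 0 were. The reference arrays had a median of -0.2 over this list, which enters the values with the reference taken off. The own median in A498 was 0.29 with an offset of 10 and 0.39 with the scanner's ratio.

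Medians of the other lists lay closer to 0. The 35 proliferation genes had medians of 0.06 and 0.02, with MYC at -0.68 in A498 and -0.28 in 786-O and the kinetochore gene CENPF at 0.61 and 0.35 (0 and -0.04 for a second probe). p53 targets had 0.06 and -0.09 (-0.05 and -0.08 with the reference median taken off), with the oxidoreductase TP53I3 and TP53INP1 (1.01 and 0.67) the 2 at or above 0.5 in A498. A second TP53INP1 probe read 0.25 there. The unfolded protein and ATF4 response, at -0.06 in both lines, had a reference median of -0.74, so its dye-referenced median of 0.8 and 0.64 came from the reference arrays. The miRNA machinery had medians of 0.06 and 0.08, and TNRC6C, an Argonaute partner, read 0.36 and 0.37 but between 0.36 and 0.82 on the other 6 arrays. Another TNRC6C probe read -0.05 in A498. The host gene PDE2A read 0.04 and 0.01, and MMP11 was not above background in either line. The 12 reference genes had medians of -0.02 and 0.02, with TFRC at 0.52 in A498.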

How the data were processed

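The authors hybridised 8 two-colour Agilent arrays (1 slide, 1 scan) and deposited Feature Extraction 11.5.1.1 output with hg19 probe positions. Mean and background intensity per spot, per the file headers, were used here. The deposited series table holds the same log10 ratio as those files (largest difference 0), used as an alternative. Background correction was normexp with an offset of 50, then loess within arrays (control spots at weight 0), after which outlier spots were dropped and spots of a probe averaged (limma 3.58.1, R 4.3.3). A probe was taken as measured if either channel stood well above background. Of 33080 probes with a RefSeq accession, 31104 were matched to a symbol. Others kept the file's name.

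The reference was the median of the 4 MDA-MB-231 and HCT116 arrays, and a dye-referenced ratio is the own ratio minus it. limma was fitted to all 8 arrays with 5 groups and Benjamini-Hochberg adjustment, and was tested on simulated data. No array test is stated in the study's methods. Precision is limited by the number of arrays, and p-values measure the spread between these arrays only. The members, lists and rules were chosen with earlier results of these data known. Named were the 10 lowest and 10 highest shared genes, the 12 lowest and 8 highest genes of each line with both ratios at or beyond 1, the 5 lowest and 5 highest line-specific genes, and list members. Alternatives covered background, normalization, filter, reference, probe choice and single arrays. Some of the genes these rules select are not reported here.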

Additional observations from a re-analysis of the deposited data

Results flagged for a closer look

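The p53 target list lay on opposite sides of 0 in the lines, with a median log2 ratio of 0.06 in A498 (22 genes) and -0.09 in 786-O (18 genes), a difference of 0.15. These medians cover unlike sets of genes. Over the 18 genes measured in both lines, the median of A498 minus 786-O was 0.02, and 8 of them were lower in A498. With the reference median taken off, the medians were -0.05 and -0.08, on one side of 0. GDF15, a secreted stress factor, read just under 0.5 in A498 and -0.54 in 786-O. With 1 array a line the difference was not tested.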

How the results depend on the processing

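No paired analysis was possible because the comparison with mock lies within each array, each line has 1 miR-139-3p array, and the reference arrays come from other cell lines. limma's test against mock called 6 probes with a normexp offset of 10, 4 with no background correction, 13 with the scanner's log ratio, 3 when a trend of the variance and a robust prior were used, and 7 (5 lower, 2 higher) with only the miR-139-3p arrays in the fit. It called 0 with median centring, with no filter on dim probes and without either array (range 0 to 0), and the test against the reference arrays called 0 under all its alternatives.

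Counts by size moved with the background correction, the normalization and the reference. Genes past 1 in A498, 22 lower and 3 higher, became 55 and 10 with an offset of 10, 47 and 9 with no background correction, and 281 and 249 with the scanner's ratio, and the lower count was 14 with median centring. The 1 lower gene of 786-O became 12, 11 and 116 in the same order, with 192 higher by the scanner's ratio. Shared genes, 165 lower and 223 higher, became 281 and 446 (offset 10), 269 and 393 (no background correction), 449 and 104 (median centring) and 667 and 783 (scanner). With no reference taken off they were 6 and 8, with only a shift common to all 4 reference arrays taken off 7 and 17, and with the own ratio past the size as well 1 and 0, the last pair of settings chosen after seeing the data.

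A498-specific genes, 20 lower and 2 higher, became 34 and 5 (offset 10) and 99 and 58 (scanner). The lower count was 13 with the own ratio past the size as well. The higher count was 5 with no background correction, 1 with a mean reference, and 6 with no reference or only the common shift taken off, which also gave 6 higher and 2 lower genes by size in A498 and 786-O. The 2 lower 786-O-specific genes became 1 with median centring or the median over probes, 0 with a mean reference, no reference or the common shift, and 43 (with 49 higher) with the scanner's ratio. The dye-referenced median of the interferon-stimulated effectors in A498, -0.44, was -0.68, -0.58, -0.55 and -0.81 with an offset of 10, no background correction, median centring and the scanner's ratio. Seed-match medians in 786-O were 0.134 and 0.097 with median centring, which put the median of all probes there at 0.063. The unfolded protein and ATF4 list, at 0.8 and 0.64, turned to -0.06 in both lines with no reference and to -0 in 786-O with the common shift. Another 70 values of the main comparisons and 326 of other gene lists and single genes moved by less than the limit set for them. A further 179 of lists and genes moved by more, of which 23 (16 list medians, 7 genes) crossed 0. The causes were not tested. Ratios of dim probes are limited by their signal over background.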
